A study of Mus musculus with 12 samples.

Results

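The genes described here make urea from ammonia in the liver or feed ammonia, ornithine and aspartate into that pathway. The set was chosen by gene name, with earlier results of these data known. It holds 10 genes (Cps1, Otc, Ass1, Asl, Arg1, Nags, Slc25a15, Slc25a13, Gls2 and Glud1) of the 14188 protein-coding genes in the deposited table, and all 10 were listed. They were represented by 20 of the 29883 protein-coding transcripts, and the value of a gene is the sum of its listed transcripts in FPKM (the number of fragments scaled by the length of the transcript and the size of the library). Liver RNA was sequenced at week 8 from 6 PZH mice and 6 control mice, with 1 library per mouse. All 12 mice were males that the methods name as C57BL/6J (the labels print C57BL/8), aged 6 weeks at the start, and all were injected into the abdomen 2 times per week with CCl4 in corn oil (10 µl of the mixture per g), a solvent treatment that injures hepatocytes and leads to fibrosis. The PZH group also received Pien Tze Huang (PZH), a traditional Chinese medicine, into the stomach every day at 0.25 mg/g, and the control group received double-distilled water by the same route. Both groups therefore received the injuring treatment, and no RNA from uninjured mice was analysed here. The extent of injury was not equal, since the paper reports significantly more liver injury in the control group when the livers were taken. Each difference below is thus between livers with and without PZH that also differ in the extent of injury. How much of a difference goes with PZH itself and how much with the extent of injury was not tested.

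Ammonia released from amino acids is toxic, and the liver converts most of it to urea. In the mitochondria of hepatocytes, Cps1 joins ammonia and bicarbonate into carbamoyl phosphate, a step that requires N-acetylglutamate, the product of Nags, and Otc transfers the carbamoyl group to ornithine to give citrulline. In the cytosol Ass1 joins citrulline and aspartate, Asl splits the product into arginine and fumarate, and Arg1 splits arginine into urea and ornithine, which returns to the mitochondria through the carrier Slc25a15. Slc25a13 (citrin) exports the aspartate, while the liver glutaminase Gls2 and the glutamate dehydrogenase Glud1 release ammonia inside the mitochondria. The cycle is strongest in periportal hepatocytes, whereas the hepatocytes next to the central vein capture the remaining ammonia as glutamine with the glutamine synthetase Glul.

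Of the members, 6 were significantly higher in the PZH group than in the control group, namely Cps1, Otc, Ass1, Asl, Slc25a15 and Slc25a13, and Nags and Glud1 were lower. The 6 higher members rose by 0.47 to 1.0 on the log2(FPKM + 1) scale, and in each of them every PZH mouse was above every control mouse. Arg1 and Gls2 had higher means in the PZH group but did not pass the test (limma with Benjamini-Hochberg adjustment over all 14188 genes, called at an adjusted p under 0.05, n = 6 mice per group). By the same rule 12.7% of all genes were called higher and 32.1% were called lower, and 6.46% of all genes were higher without any overlap between the groups while 17.9% were lower without overlap. The median difference of the 10 members was 0.56, beside -0.11 over all genes. Because FPKM is a share of the library and the median gene was lower in the PZH group, the fit was repeated after median-ratio scaling, which puts the median gene near 0. It called 2807 genes higher (19.8%) and 2739 lower (19.3%), where the FPKM as deposited gave 1798 higher and 4560 lower. Under this scaling 8 members were called higher and 0 lower, so Arg1 and Gls2 joined the higher members, and the falls of Nags and Glud1 no longer passed the test.

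**Figure D1:**
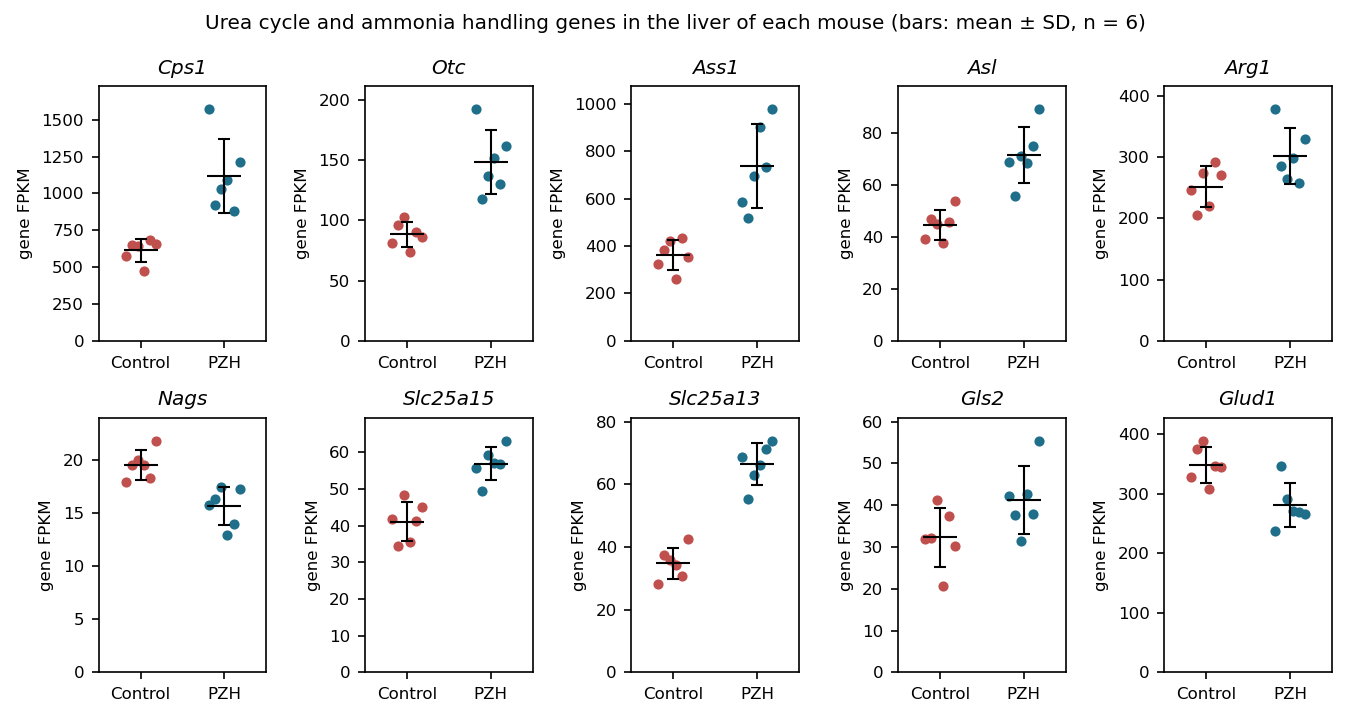
Gene FPKM (linear axis from 0) of the 10 genes in each of the 12 mice, with 6 control mice in red and 6 PZH mice in blue, and bars for the mean ± SD. The groups do not overlap for Cps1, Otc, Ass1, Asl, Slc25a15 and Slc25a13, which are higher with PZH, or for Nags, which is lower, and they overlap for Arg1, Gls2 and Glud1.

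The data came from RNA depleted of ribosomal RNA and sequenced as strand-specific libraries, and their depth is known only roughly. The step between low FPKM values put it at 26.8 to 42.8 M fragments per mouse. That step was searched only within a range set beforehand, which bounds the estimate, and only 11.3% to 19.4% of the low values were whole multiples of it. The FPKM sum was 325302 to 334194 in the control group and 326060 to 370426 in the PZH group. The correlation between mice on the log2(FPKM + 1) scale, over genes with a mean of at least 1 FPKM, was 0.959 to 0.980 within a group. Between groups it was 0.90 to 0.967. The liver label fitted the hepatocyte markers, as Alb, which encodes serum albumin, stood at 18015 to 29477 FPKM in the control group and 33360 to 46362 in the PZH group. The labels give no batch, litter or sequencing day. Hepatocytes were not separated from other liver cells, so fewer cells of a type and less RNA per cell cannot be told apart in any value below.

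To show what lies upstream of the members that differed, promoter windows from 250 bases before to 50 bases after the RefSeq start (build GRCm38.p6, each written 5′ to 3′ on the strand of its gene) were taken for the higher members Otc, Ass1 and Slc25a13 and for the lower members Nags and Glud1. Windows were found for 6 of the 10 members, with none for Cps1, Asl, Arg1 and Gls2. Capitals mark every match, on either strand, to the TATA box (TATAAA), the CCAAT box (CCAAT), the GC box bound by Sp1 (GGGCGG), the consensus of the C/EBP factors (TTNNGNAA) or the half-site of the cAMP response element (TGACG), and no matches overlap in these windows.
Otc, chrX:10252055-10252354 (+): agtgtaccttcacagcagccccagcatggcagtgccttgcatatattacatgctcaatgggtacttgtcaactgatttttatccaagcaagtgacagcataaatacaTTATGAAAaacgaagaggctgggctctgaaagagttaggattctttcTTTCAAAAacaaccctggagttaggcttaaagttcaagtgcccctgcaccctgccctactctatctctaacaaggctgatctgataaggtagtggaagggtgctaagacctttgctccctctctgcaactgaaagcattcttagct
Ass1, chr2:31470020-31470319 (+): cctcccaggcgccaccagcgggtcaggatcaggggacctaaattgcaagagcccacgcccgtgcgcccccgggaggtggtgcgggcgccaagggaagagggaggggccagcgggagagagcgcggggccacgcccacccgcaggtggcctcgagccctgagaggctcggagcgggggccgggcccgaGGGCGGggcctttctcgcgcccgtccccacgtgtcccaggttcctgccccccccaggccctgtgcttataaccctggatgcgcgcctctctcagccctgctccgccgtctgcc
Slc25a13, chr6:6217124-6217423 (-): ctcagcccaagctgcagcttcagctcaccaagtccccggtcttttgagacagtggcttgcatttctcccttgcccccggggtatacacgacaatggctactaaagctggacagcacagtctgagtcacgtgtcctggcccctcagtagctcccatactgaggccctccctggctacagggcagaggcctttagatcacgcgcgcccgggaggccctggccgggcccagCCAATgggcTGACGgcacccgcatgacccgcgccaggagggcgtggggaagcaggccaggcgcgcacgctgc
Nags, chr11:102145263-102145562 (+): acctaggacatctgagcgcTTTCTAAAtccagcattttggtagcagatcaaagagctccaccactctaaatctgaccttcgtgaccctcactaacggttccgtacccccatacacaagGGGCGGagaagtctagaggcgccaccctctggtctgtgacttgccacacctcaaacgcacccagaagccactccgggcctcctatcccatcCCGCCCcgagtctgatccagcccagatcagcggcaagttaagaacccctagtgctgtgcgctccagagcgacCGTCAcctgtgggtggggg
Glud1, chr14:34310477-34310776 (+): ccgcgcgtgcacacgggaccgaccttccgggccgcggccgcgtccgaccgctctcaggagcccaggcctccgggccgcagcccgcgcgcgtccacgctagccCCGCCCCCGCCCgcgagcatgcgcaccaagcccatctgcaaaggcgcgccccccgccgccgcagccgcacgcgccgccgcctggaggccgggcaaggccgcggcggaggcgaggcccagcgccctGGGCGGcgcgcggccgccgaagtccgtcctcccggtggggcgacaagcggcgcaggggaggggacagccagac

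The window of Otc held 2 C/EBP matches, at 143 and 96 bases before the start, and none of the other motifs. The window of Ass1 held 1 GC box, 63 bases before the start, and that of Slc25a13 held a CCAAT box and a TGACG match, 22 and 13 bases before the start. Slc25a15, the other higher member with a window, has 2 RefSeq starts, whose windows (not printed) held 3 and 5 GC boxes and none of the other motifs. Among the lower members, Glud1 held 3 GC boxes and Nags held 2 GC boxes, 1 C/EBP match and 1 TGACG match, so the GC box was found in higher and in lower members. These letters are common, since the GC box is in 35.7%, the C/EBP consensus in 40.7%, CCAAT in 37.4%, TGACG in 20.8% and TATAAA in 13.6% of the 32851 promoter windows of the same length. A match describes the sequence only, and binding was not measured.

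The mitochondrial steps are considered first. Cps1 (chromosome 1, 67123026 to 67231259, plus strand, 38 exons in its listed transcript), the entry step of the cycle, was at 476 FPKM in the lowest, 644 in the median and 687 in the highest control mouse, and at 882, 1063 and 1571 in the PZH group. The lowest PZH mouse was thus well above the highest control mouse, and PZH 1 was the highest. The mean was 613.9 ± 76.4 (SD, n = 6) in the control group and 1118 ± 252 (SD, n = 6) in the PZH group, a difference of 0.85 ± 0.14 (SE) on the log2 scale (limma, adjusted p = 0.000335). Cps1 alone took 0.146% to 0.208% of the summed FPKM of a control mouse and 0.267% to 0.424% of that of a PZH mouse.

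Otc (chromosome X, 10252305 to 10321024, plus strand), which makes citrulline, was at 73.3, 88.0 and 102 FPKM in the lowest, median and highest control mouse and at 118, 144 and 192 FPKM in the PZH group. No PZH mouse fell within the control range, and the mouse with the most Otc was again PZH 1. The means of 88.2 ± 10.5 and 148 ± 26.5 (SD, n = 6 each) differed by 0.73 ± 0.12 (SE) on the log2 scale (limma, adjusted p = 0.000322).

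Slc25a15 (chromosome 8, 22375551 to 22398597, minus strand), the carrier that exchanges ornithine and citrulline across the inner mitochondrial membrane, was at 34.4, 41.4 and 48.2 FPKM in the lowest, median and highest control mouse and at 49.5, 56.9 and 63.1 FPKM in the PZH group. The groups came close but did not overlap, and the difference of 0.47 ± 0.09 (SE, log2 scale) was the smallest among the 6 higher members (limma, adjusted p = 0.00101).

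Nags (chromosome 11, 102145513 to 102149477, plus strand), the enzyme that makes the activator of Cps1, went the other way. It was at 17.9, 19.6 and 21.9 FPKM in the lowest, median and highest control mouse and at 13, 16.1 and 17.5 FPKM in the PZH group, so every PZH mouse was below every control mouse, with a narrow gap. The mean fell from 19.6 ± 1.40 to 15.7 ± 1.79 (SD, n = 6 each), a difference of -0.31 ± 0.08 (SE) on the log2 scale (limma, adjusted p = 0.0072). After median-ratio scaling it was -0.13 and was not called (limma, adjusted p = 0.223, from 0.00396 to 0.223 over all alternatives). Its exons overlap those of the antisense gene Gm11586. The libraries were strand-specific, but the paper does not state whether the strand was used in assigning reads.

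Of the cytosolic enzymes, Ass1 and Asl were called higher and Arg1 was not called. Ass1 (chromosome 2, 31470207 to 31520672, plus strand), which forms argininosuccinate, was at 261, 368 and 433 FPKM in the lowest, median and highest control mouse and at 520, 714 and 976 FPKM in the PZH group. The PZH mice spread widely, with PZH 2 and PZH 1 at the bottom and PZH 6 and PZH 4 at the top, yet all were above the control mice. The means of 362 ± 64.0 and 735 ± 176 (SD, n = 6 each) differed by 1.0 ± 0.16 (SE) on the log2 scale (limma, adjusted p = 0.000372). On gene sums Ass1 was the only member past a 2-fold change with an unadjusted p under 0.05, which 1.52% of all genes passed upwards. The study applied this criterion to transcripts, for which the count is given below. Ass1 sat on that limit, since 0 members passed it without Control 1, Control 4, PZH 4, PZH 5 or PZH 6 or with equal FPKM sums, and 3 passed it after median-ratio scaling.

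Asl (chromosome 5, 130011258 to 130029247, minus strand), the lyase that releases arginine and fumarate, was at 37.6, 45.4 and 53.8 FPKM in the lowest, median and highest control mouse and at 55.6, 70.0 and 89.0 FPKM in the PZH group. The lowest PZH mouse, PZH 2, was just above the highest control mouse. The means of 44.6 ± 5.81 and 71.35 ± 10.8 (SD, n = 6 each) differed by 0.66 ± 0.11 (SE) on the log2 scale (limma, adjusted p = 0.000434).

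Arg1 (chromosome 10, 24915221 to 24927484, minus strand), the arginase that releases urea, was at 206, 259.5 and 293 FPKM in the lowest, median and highest control mouse and at 258, 292 and 379 FPKM in the PZH group. The groups overlapped, and only PZH 1, PZH 4 and PZH 6 were above all control mice. The difference of 0.26 ± 0.11 (SE) on the log2 scale did not pass the test (limma, adjusted p = 0.0751), with a 95% interval of 0.02 to 0.50 before adjustment. After median-ratio scaling it was 0.45 and was called (limma, adjusted p = 0.013, from 0.013 to 0.154 over all alternatives).

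The suppliers of nitrogen did not move together. Slc25a13 (chromosome 6, 6041218 to 6217173, minus strand), the mitochondrial exporter of aspartate, was at 28.1, 35.1 and 42.5 FPKM in the lowest, median and highest control mouse and at 55.4, 67.5 and 74.0 FPKM in the PZH group. The gap between the groups was wide against the spread within them, and the means of 34.8 ± 5.04 and 66.5 ± 6.66 (SD, n = 6 each) differed by 0.92 ± 0.10 (SE) on the log2 scale (limma, adjusted p = 3.1e-05, the lowest of the 10 members).

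Gls2 (chromosome 10, 128194457 to 128210004, plus strand), the glutaminase of periportal hepatocytes, was at 20.7, 32.0 and 41.2 FPKM in the lowest, median and highest control mouse and at 31.4, 40 and 55.4 FPKM in the PZH group. The groups overlapped widely, with Control 4 low and PZH 6 high. The difference of 0.35 ± 0.16 (SE) on the log2 scale was not called (limma, adjusted p = 0.0889), with a 95% interval of 0.01 to 0.69 before adjustment. It was called at 0.54 after median-ratio scaling (limma, adjusted p = 0.0255), at 0.43 without Control 3 (limma, adjusted p = 0.0453) and at 0.42 without PZH 3 (limma, adjusted p = 0.0495), over a range of 0.0255 to 0.188 in all alternatives. Its exons overlap those of Spryd4 on the opposite strand.

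Glud1 (chromosome 14, 34310727 to 34345265, plus strand), which interconverts glutamate and 2-oxoglutarate with release or capture of ammonia, was at 307, 345 and 389 FPKM in the lowest, median and highest control mouse and at 237, 270.4 and 346 FPKM in the PZH group. Only PZH 2 lay inside the control range. The mean fell from 348 ± 29.8 to 280.1 ± 36.8 (SD, n = 6 each), a difference of -0.32 ± 0.09 (SE) on the log2 scale (limma, adjusted p = 0.0121). As for Nags, it was -0.13 after median-ratio scaling and not called (limma, adjusted p = 0.229, from 0.00188 to 0.229 over all alternatives).

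**Figure D2:**
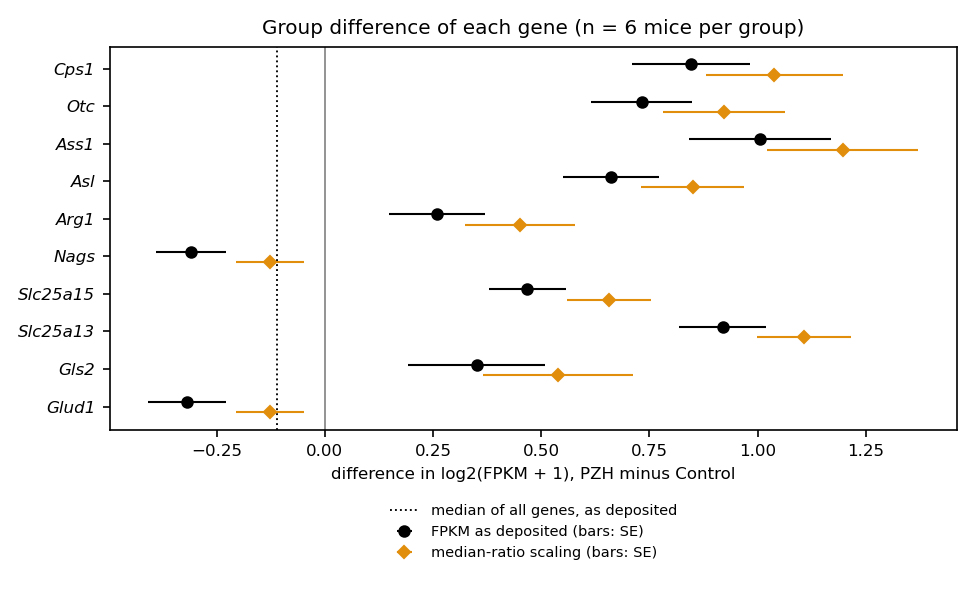
Group difference of each gene on the log2(FPKM + 1) scale, PZH minus control (n = 6 mice per group), with FPKM as deposited (black circles, bars SE) and after median-ratio scaling (orange diamonds, bars SE). The dotted line is the median of all genes at -0.11. The 6 called higher lie between 0.47 and 1.0, and Nags and Glud1 lie at -0.31 and -0.32 as deposited and at -0.13 after scaling.

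The same values were compared without a model. An exact permutation test of the difference in mean FPKM over all labellings of the mice gave p = 0.0022, the smallest that 6 against 6 mice allow, for each of the 7 members whose groups did not overlap. It gave p = 0.0108 for Glud1 and p = 0.0541 for both Arg1 and Gls2 (two-sided exact permutation tests, n = 6 mice per group, not adjusted). Together the 10 members took 0.457% to 0.611% of the summed FPKM of a control mouse and 0.737% to 0.935% of that of a PZH mouse, without overlap.

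The order of the levels, which FPKM allows between genes since it is per length, was led by Cps1 in all mice. In the control group Ass1 at 362 FPKM and Glud1 at 348 FPKM did not separate, as Ass1 was above Glud1 in only 4 of the 6 mice, and Arg1, Otc and Asl followed in steps whose ranges did not overlap. Asl, Slc25a15, Slc25a13 and Gls2 lay between 32.3 and 44.6 FPKM on average with ranges that overlapped from each to the next, and Nags was lowest in every mouse, although its range reached that of Gls2. In the PZH group Ass1 was second at 735 FPKM with a wide gap to the next gene, and Arg1 at 302 FPKM and Glud1 at 280.1 FPKM did not separate, each being the higher in 3 mice. Slc25a13 overtook Slc25a15, which it exceeded in 6 of 6 PZH mice against 1 of 6 control mice.

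Ratios of 2 genes within a mouse do not depend on the library scale, and these ratios were chosen after the gene values had been seen, so they are given without a test. The ratio of Cps1 to Glud1 was 1.76 ± 0.16 (SD, n = 6) in the control group and 4.12 ± 1.40 (SD, n = 6) in the PZH group, and the highest control mouse at 1.98 was below the lowest PZH mouse at 2.65. The ratio of Cps1 to Nags was 31.5 ± 4.29 and 72.0 ± 16.8, again without overlap, which means unequal change of the paired genes whatever the scale. The ratio of Cps1 to Otc, the first and second enzymes, was 6.97 ± 0.58 and 7.51 ± 0.48 and overlapped.

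The members were also set against Alb, the most abundant hepatocyte marker, which itself rose by 0.68 on the log2 scale (limma, adjusted p = 0.000697). The hepatocyte markers did not move together, as the fibrinogen chain Fga (named after its values had been seen) fell by 1.31 without overlap (limma, adjusted p = 1.56e-05), so these ratios hold for Alb only. Cps1 per 1000 Alb was 25.8 ± 3.45 in the control group and 28.9 ± 2.79 in the PZH group (SD, n = 6 each), with overlap, and Ass1 per 1000 Alb was 15.2 ± 2.45 and 19.3 ± 4.43, with overlap. Glud1 per 1000 Alb was 14.7 ± 1.57 and 7.48 ± 1.83, and all control mice were above all PZH mice. Arg1 per 1000 Alb was 10.8 ± 2.22 and 7.87 ± 0.47, with overlap because Control 2 was at 7.0.

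**Figure D3:**
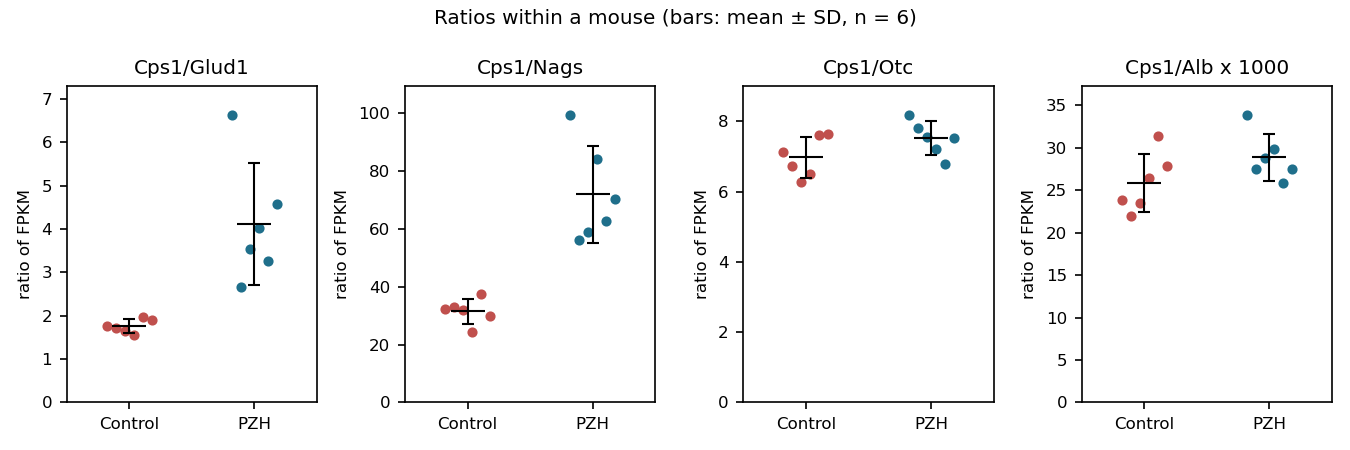
FPKM ratios within each mouse (linear axes from 0) for Cps1 to Glud1, Cps1 to Nags, Cps1 to Otc and Cps1 to 1000 Alb, with 6 control mice in red, 6 PZH mice in blue and bars for mean ± SD. The first and second panels separate the groups (1.76 against 4.12 and 31.5 against 72.0), and the Cps1 to Otc and Cps1 to Alb panels overlap.

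Some mice lay at the same end of their group for several members, but not for all. Control 4 was the lowest of its group for 6 of the 10 members and PZH 2 was the lowest of its group for 5, while PZH 6 was the highest for 5 and PZH 1 for 3. Control 4 was the highest for 0 members and PZH 6 the lowest for 0. For Glud1 the order was reversed, with PZH 2 the highest of its group at 346 FPKM and PZH 1 the lowest at 237 FPKM. Cps1 was correlated with the 10947 other genes that had a mean of at least 1 FPKM. This was done over the 12 mice centred on their group means, on the log2(FPKM + 1) scale. Outside the members, the genes most like Cps1 were Coa6, an assembly factor of cytochrome c oxidase (r = 0.92), Uqcrb, a subunit of respiratory complex III (r = 0.92), and Cpq, a secreted carboxypeptidase (r = 0.91). Among the members Otc was at r = 0.91 and Arg1 at r = 0.78, whereas Ass1 was at r = 0.34 and Glud1 at r = -0.29. These pooled values hide differences between the groups, since Ass1 was at 0.94 over the 6 control mice and 0.05 over the 6 PZH mice, Glud1 at 0.74 and -0.73, and Otc at 0.79 and 0.96. These correlations describe 6 or 12 libraries that differ in depth and composition and carry no test.

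The values per transcript added detail that the gene sums hide. Of the 20 listed transcripts of the members, 6 were called higher, beside 5.73% of all 29883 transcripts, and 3 were called lower, beside 14.0% (limma on log2(FPKM + 1), adjusted over all transcripts). By the thresholds of the study (a 2-fold change, unadjusted p under 0.05), 4 of them were higher and 0 lower, beside 1.24% of all transcripts higher. The study names no test and the p here is from limma, so these counts need not match its own. The 4 were 1 transcript each of Ass1, Otc (ENSMUST00000115528), Asl (ENSMUST00000159096) and Slc25a13 (ENSMUST00000015256). That of Slc25a13 was at 68.4 FPKM in PZH 1 and 73.4 FPKM in PZH 6, but at 2.47 to 3.23 FPKM in the other PZH mice. It was not called after adjustment (limma, adjusted p = 0.0847). Cps1, Ass1, Arg1, Nags and Slc25a15 had 1 listed transcript each, Otc, Slc25a13 and Glud1 had 2, Gls2 had 3 and Asl had 6.

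Both Otc transcripts were higher in the PZH group, and the minor one rose more. The main transcript, ENSMUST00000049910, was at 63.1 to 85.3 FPKM in the control group and 84.4 to 136 FPKM in the PZH group, a difference of 0.47 ± 0.12 (SE, log2 scale, limma, adjusted p = 0.0155). ENSMUST00000115528 was at 10.2 to 19.7 FPKM in the control group and 33.2 to 55.7 FPKM in the PZH group, with no overlap, a difference of 1.55 ± 0.17 (SE, log2 scale, limma, adjusted p = 0.000153). The main transcript therefore held 79.6% to 86.1% of Otc in the control group and 64.8% to 71.8% in the PZH group, and its mean share fell by 13.9 points (exact permutation, two-sided p = 0.0022, n = 6 per group, adjusted p = 0.0108 over the 5 members with several transcripts). Leaving out single mice, the fall was 13 to 14.6 points.

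The Otc transcripts share 8 of their 10 exons exactly. They differ in where they start (10252305 for the main one and 10252367 for the other) and at their 3′ end. The main one ends in an exon of 1182 bases, and the other in an exon of 1922 bases inside the last intron of the main one. Each last exon holds its own coding end, of 57 and 48 bases, so the encoded proteins would differ at their C-terminus.

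The Slc25a13 transcripts are almost the same molecule and were split differently between mice. ENSMUST00000188414 and ENSMUST00000015256 share 3066 bases of 3121 and 3067, and the same 2028 coding bases. The first held at least 94.0% of the gene in the 6 control mice and 94.2% to 96.3% in 4 PZH mice, but 0.51% in PZH 1 and 0.78% in PZH 6, where nearly all of the FPKM was assigned to the second. On that transcript alone the group difference was -0.95 ± 1.05 (SE, log2 scale, limma, adjusted p = 0.593 over transcripts), opposite in sign to the difference of the gene sum, which holds both transcripts. The test of the share did not pass (exact permutation, two-sided p = 0.113, n = 6 per group).

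The 6 Asl transcripts were also divided unevenly, with the main one, ENSMUST00000160129, at 35.7% to 91.1% of the gene in control mice and 25.0% to 87.2% in PZH mice (exact permutation of the share, two-sided p = 0.238, n = 6 per group). Taken alone it gave a difference of 0.12 ± 0.37 (SE, log2 scale), so the rise of Asl was seen in the sum over its transcripts and not in the main one. For Gls2 and Glud1 the main transcript held at least 90.6% of the gene in every mouse. Both Glud1 transcripts were lower in the PZH group, by -0.32 ± 0.09 and -0.47 ± 0.11 (SE, log2 scale, limma, adjusted p = 0.0318 and 0.0119), the second being a short model at 0.52 to 1.94 FPKM.

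**Figure D4:**
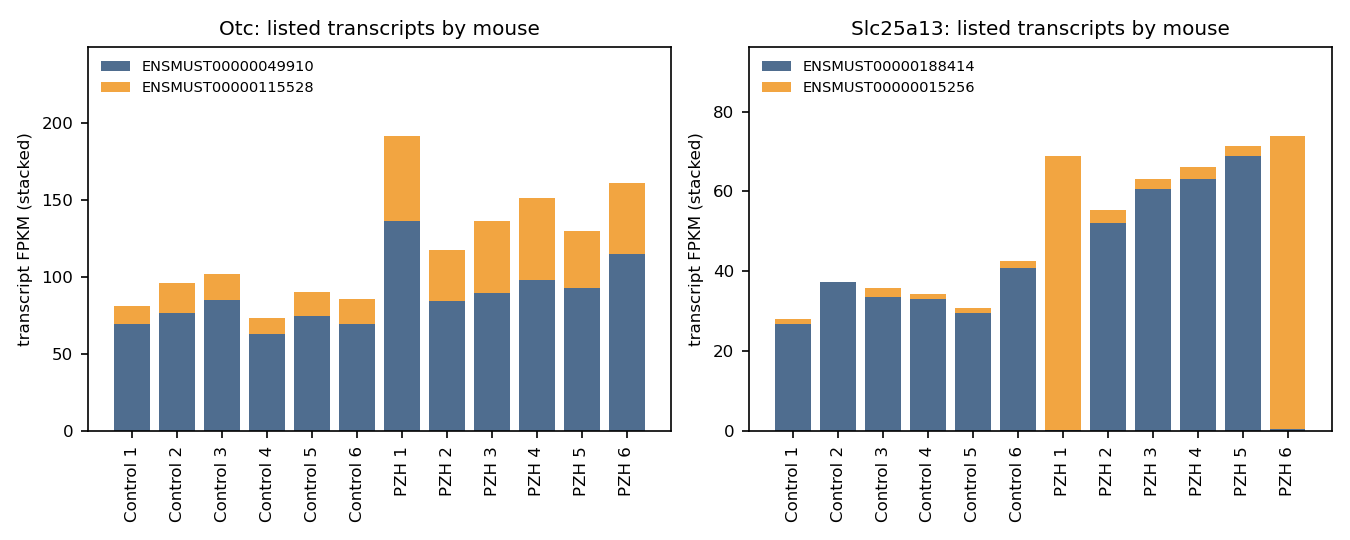
FPKM of the listed transcripts of Otc (left) and Slc25a13 (right) stacked for each of the 12 mice, on linear axes from 0. The orange part of Otc grows from 10.2 to 19.7 FPKM in the control mice to 33.2 to 55.7 FPKM in the PZH mice, and the bar of Slc25a13 is almost wholly orange in PZH 1 and PZH 6 only.

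The genes around the cycle were taken from 5 lists of 65 genes in all, of which 59 were in the table. In the PZH group 24 of them were called higher and 16 lower (12.7% and 32.1% of all genes), with a median difference of 0.11 on the log2 scale beside -0.11 over all genes, and after median-ratio scaling 29 were higher and 9 lower (19.8% and 19.3% of all genes). By list, in the order below, the scaled counts were 4 higher and 1 lower, 5 and 5, 7 and 0, 8 and 1, and 5 and 2.

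In the glutamine and ammonia transport list 3 of 9 listed genes were higher and 2 were lower, beside 12.7% and 32.1% of all genes. Glul, the glutamine synthetase of pericentral hepatocytes, was at 23.4 ± 3.33 FPKM in the control group and 29.9 ± 7.11 FPKM in the PZH group (SD, n = 6 each) with overlapping groups, and was not called (limma, log2 difference 0.32, adjusted p = 0.114, from 0.00945 to 0.232 over all alternatives). It was called higher after median-ratio scaling, at 0.50, and without PZH 1, at 0.45. The amino acid carrier Slc38a4 rose from 252.5 to 503 FPKM and the glutamine carrier Slc38a3 from 134 to 196 FPKM, both without overlap, and the channel Aqp8 rose from 19.9 to 29.4 FPKM with overlap and close to the threshold (limma, adjusted p = 0.0467, from 0.00436 to 0.0989 over all alternatives). The carrier Slc38a2 fell from 42.4 to 27.3 FPKM, a fall not called after median-ratio scaling (limma, adjusted p = 0.0629, from 0.00442 to 0.0629 over all alternatives). The ammonia channel Rhbg was at 0.82 and 1.20 FPKM and was not called, except without PZH 2 (limma, log2 difference 0.35, adjusted p = 0.0456, from 0.0456 to 0.321 over all alternatives). The ratio of Gls2 to Glul within a mouse was 0.76 to 1.81 in the control group and 0.94 to 2.29 in the PZH group.

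In the arginine and ornithine list 4 of 13 listed genes were higher and 5 were lower, beside 12.7% and 32.1% of all genes. The count of lower genes was thus near the share of all genes as deposited. Gamt, which makes creatine, rose from 12.9 to 37.2 FPKM and Ddah1, which clears methylated arginine, from 26.8 to 49.0 FPKM, both without overlap. Aldh18a1, which makes a precursor of proline and ornithine from glutamate, fell from 6.36 to 2.49 FPKM, Odc1, which turns ornithine into polyamines, from 40.7 to 21.7 FPKM and Nos3, which makes nitric oxide from arginine, from 1.89 to 1.1 FPKM. The arginine carrier Slc7a1 fell from 1.76 to 0.66 FPKM without overlap, while the hepatic carrier Slc7a2 was at 59.5 and 78.5 FPKM and was not called (limma, adjusted p = 0.0897, from 0.0116 to 0.263 over all alternatives), except after median-ratio scaling (0.57 on the log2 scale) and without Control 4 (0.46) or PZH 4 (0.49). The mitochondrial arginase Arg2, at 0.77 and 0.67 FPKM, and the ornithine aminotransferase Oat, at 21 ± 11.9 and 13.5 ± 5.47 FPKM (SD, n = 6 each), were not called.

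In the mitochondrial and nitrogen supply list 5 of 12 genes were higher and 1 was lower, beside 12.7% and 32.1% of all genes. Car5a, the mitochondrial carbonic anhydrase that supplies bicarbonate to Cps1, had the largest difference of the list, from 2.22 to 7.73 FPKM in the control group to 12 to 22.3 FPKM in the PZH group (log2 difference 1.85 ± 0.25 (SE), limma, adjusted p = 0.000103). Its relative Car5b rose from 0.85 to 1.5 FPKM. The mitochondrial deacylases Sirt3 and Sirt5, both known to act on enzymes of the cycle, rose from 7.51 to 14.8 FPKM and from 2.57 to 3.48 FPKM. The cytosolic alanine aminotransferase Gpt rose from 22.5 to 41.0 FPKM, and Gpt, Sirt3 and Sirt5 were not called on their main transcripts alone. The mitochondrial Gpt2 fell from 109 to 88.9 FPKM (limma, adjusted p = 0.0412, from 0.0252 to 0.488 over all alternatives), with another call in 12 of 20 alternatives. The ratio of Slc25a13 to its paralogue Slc25a12, which was at 2.83 and 2.88 FPKM and not called (limma, adjusted p = 0.813, from 0.0492 after median-ratio scaling to 0.993), was 9.53 to 14.7 in the control group and 19.8 to 26.7 in the PZH group, without overlap.

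In the list of ammonia-releasing enzymes, 8 of 11 listed genes were higher and 3 were lower, beside 12.7% and 32.1% of all genes. The list is broader than its name, since Prodh, Aldh4a1 and Cbs break down or convert amino acids without releasing ammonia themselves. The higher genes included Cth (cystathionine gamma-lyase), from 60.9 to 178.5 FPKM, Prodh (proline oxidation), from 9.21 to 27.6 FPKM, Sds (serine dehydratase), from 20 to 38.9 FPKM, Amt (glycine cleavage), from 8.48 to 16.5 FPKM, Aldh4a1 (proline oxidation), from 30.6 to 59.8 FPKM, and Hal (histidine ammonia-lyase), from 38.8 to 60.4 FPKM. The groups did not overlap for Prodh, Sds and Amt. The 3 lower genes, named after their values had been seen, were Sdsl, Cbs and Gldc, at -0.42, -0.35 and -0.34 on the log2 scale, and of these Sdsl alone was called lower after median-ratio scaling. The fall of Gldc was close to the threshold (limma, adjusted p = 0.0452, from 0.0234 to 0.411 over all alternatives).

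Of 14 regulators known from work on urea cycle genes, 4 were higher and 5 lower as deposited, beside 12.7% and 32.1% of all genes. After median-ratio scaling 5 were higher and 2 lower, beside 19.8% and 19.3% of all genes. The counts of lower regulators were thus near the share of all genes. Cebpa, a C/EBP factor of differentiated hepatocytes, rose from 41.3 ± 6.86 to 60.5 ± 6.61 FPKM (SD, n = 6 each) without overlap, while Cebpb, which is induced in injury, fell from 9.78 ± 2.98 to 3.58 ± 0.81 FPKM without overlap and Cebpd fell from 2.31 to 1.16 FPKM. Klf15, a regulator of amino acid breakdown, rose from 25.6 to 43.7 FPKM and the coactivator Ppargc1a from 1.61 to 2.41 FPKM, and Crtc2, a coactivator of Creb1, fell from 3.81 to 2.50 FPKM. Hnf4a, a hepatocyte nuclear receptor, fell from 166 ± 7.94 to 135 ± 15.2 FPKM (limma, log2 difference -0.30, adjusted p = 0.00937), without overlap, but its fall of -0.11 after median-ratio scaling was not called (limma, adjusted p = 0.25, from 0.00411 to 0.25 over all alternatives). The calls of Crtc2 (limma, adjusted p = 0.04, from 0.0131 to 0.144 over all alternatives) and Ppargc1a (limma, adjusted p = 0.0295, from 0.00512 to 0.0673 over all alternatives) were close to the threshold. The call of Crtc2 was lost in 13 of 20 alternatives, among them a pseudocount of 0.1, median-ratio scaling and no variance moderation, and that of Ppargc1a in 7 of 20, each with 1 mouse left out. Transcript levels of these factors do not measure their activity.

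**Figure D5:**
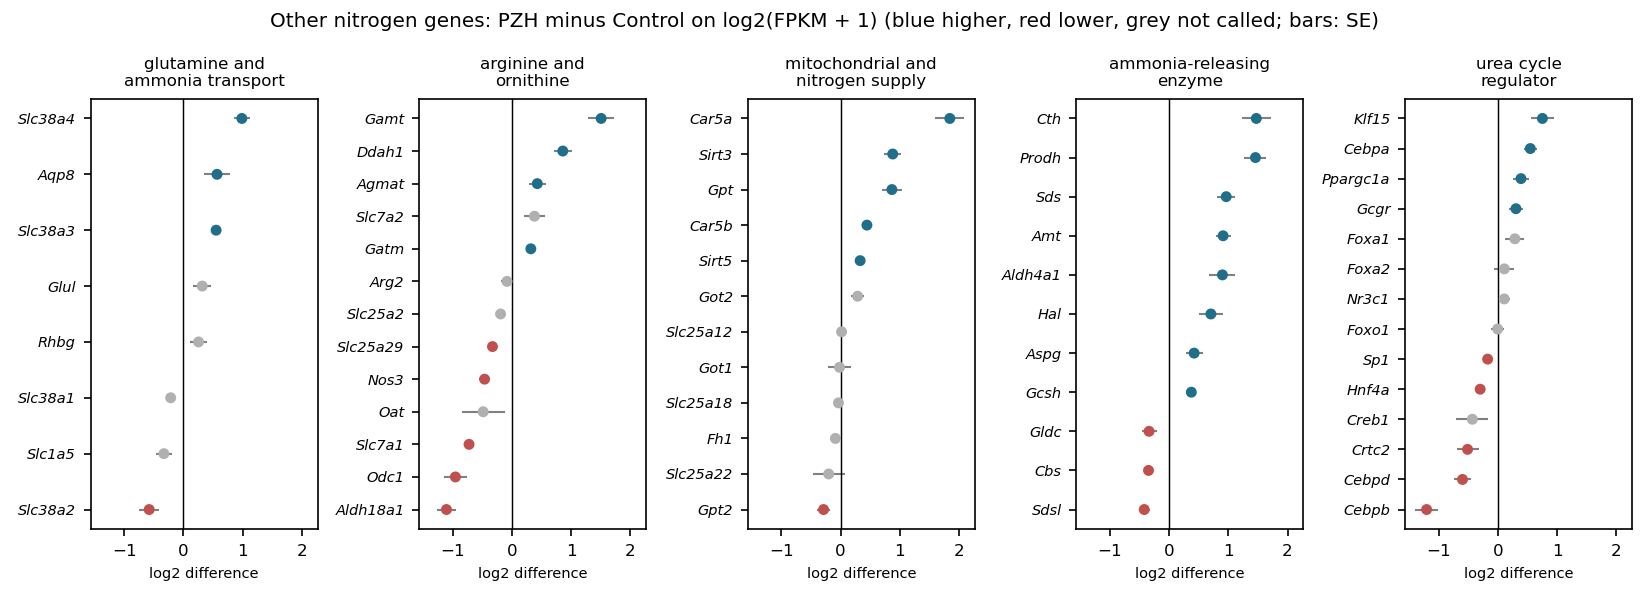
Differences of genes of the 5 lists on the log2(FPKM + 1) scale, PZH minus control (n = 6 mice per group), with bars for the SE and blue for higher, red for lower and grey for not called. Car5a at 1.85 and Gamt at 1.51 lie farthest to the right and Cebpb at -1.20 farthest to the left.

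Markers of the liver zones and of other cells were read beside the members, with 12.7% of all genes called higher and 32.1% called lower as deposited and 19.8% and 19.3% after median-ratio scaling. Hal and Sds are counted again among the periportal markers and Glul, Oat and Rhbg among the pericentral ones. Of the periportal markers 3 of 7 were higher and 1 was lower, and their summed level was 1212 to 1393 FPKM in the control group and 1179 to 1583 FPKM in the PZH group, with overlap. Of the pericentral markers 6 of 9 listed were higher and none was lower, and their summed level rose from 299.5 to 516 FPKM in the control mice to 1023 to 2056 FPKM in the PZH mice, led by Cyp2e1 (2.24 on the log2 scale). Of the hepatocyte markers 3 of 7 listed were higher and 1 was lower, with a sum, mostly Alb, of 29960 to 42830 FPKM and 45290 to 61540 FPKM. The macrophage list had 2 of 8 genes higher and 4 lower, at 167 to 218 FPKM and 115 to 174 FPKM, and the stellate and myofibroblast list had 2 of 9 higher and 2 lower, at 238 to 375.5 FPKM and 321 to 415 FPKM. The cholangiocyte list had 1 of 5 listed genes lower, at 96.9 to 161 FPKM and 66.9 to 133 FPKM, and the endothelial list 2 of 6 lower, at 88.2 to 101 FPKM and 77.2 to 99.9 FPKM. None of the 7 lymphocyte markers was called as deposited, at 4.43 to 16.2 FPKM and 8.66 to 12.4 FPKM, and the cholangiocyte marker Epcam was listed at 0 in at least 1 mouse. All 4 proliferation markers were higher, at 1.43 to 2.96 FPKM and 5.32 to 13.1 FPKM. After median-ratio scaling the counts higher and lower were 3 and 1 for periportal, 7 and 0 for pericentral, 5 and 1 for hepatocyte, 3 and 2 for macrophage, 5 and 2 for stellate and myofibroblast, 1 and 1 for cholangiocyte, 1 and 1 for endothelial, 1 and 0 for lymphocyte and 4 and 0 for proliferation markers. The part of these shifts in the values of the members was not tested.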

How the data were processed

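RNA from 12 mouse livers (6 PZH, 6 control) was analysed. The authors trimmed reads with Trimmomatic, mapped them to GRCm38 with HISAT2 and assembled transcripts with StringTie on Ensembl release 95. What the authors deposited is FPKM per protein-coding transcript and mouse, which are already divided by length and library size and are not counts. Whole reads could not be recovered, as 11.3% to 19.4% of low values were whole multiples (tolerance 0.01) of 1 fragment, so no counting interval is given and the error is the spread between mice. The lncRNA table was not used.

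Transcripts were mapped to genes with GENCODE M21 (29876 of 29883) and summed. Groups were compared on log2(FPKM + 1), without filter or covariate, with limma 3.58.1 in R 4.3.3 and Benjamini-Hochberg adjustment over all genes or transcripts. Such a difference understates the change of low genes. Single values were compared by two-sided exact permutation over all labellings of the mice. Other steps were run in Python 3.11.15 (matplotlib 3.10.9, scipy 1.17.1, numpy 2.4.6, pandas 2.3.3). Tested on simulated data with the spread of this comparison (14188 genes, 100 changed per size), the fit recovered 52% of changes of 0.5 and 89% of changes of 1 on the log2 scale, and called 9 unchanged genes. Far fewer genes were changed there than the 6358 called in the mice, and the adjustment depends on that number. These values are therefore not the recovery or the number of false calls of the real fit.

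The members and lists were chosen with earlier results of these data known. Named by rule were all members, Glul, Oat, Rhbg, Slc1a2 (not analysed here), Slc38a3, Slc7a2, Arg2, Car5a, Sirt5, Hnf4a and Cebpa, the called genes of each list or its 6 with the largest difference, and the 3 genes most like Cps1. Alternatives tried were median-ratio scaling, a mean FPKM of at least 1, a pseudocount of 0.1, equal FPKM sums, a mean-variance trend, no variance moderation, the mouse number as a block, each mouse left out in turn and the main transcript alone. Groups were taken from the sample labels. Some genes and sequences of these lists are not reported here, and the counts include those genes.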

Additional observations from a re-analysis of the deposited data

How the results depend on the processing

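Cps1, Otc, Ass1 and Slc25a15 were called higher under all 20 alternatives, with differences of 0.74 to 1.04, 0.47 to 0.92, 0.91 to 1.20 and 0.42 to 0.66 on the log2 scale. Asl and Slc25a13 were not called on their main transcript alone, at 0.12 and -0.95, because the FPKM of their other transcripts was then left out, and were called under the other 19. The count of members called was 8, from 6 to 9 over the alternatives. The count past 2-fold was 1, became 3 after median-ratio scaling and 0 with equal FPKM sums, and ranged from 0 to 1 with 1 mouse left out. Median-ratio scaling also ended the calls of Nags and Glud1 and added Arg1 and Gls2, whose values are given above, and Gls2 was added without Control 3 or PZH 3. Member transcripts called ranged from 7 to 10 (9 as reported), genes of the lists from 32 to 41 (40) and all genes from 5304 to 6437 (6358). Of the 41 other genes named with a difference, 26 kept their call and direction under every alternative and 15 did not. Slc25a12, not called, changed sign at -0.0143 with equal FPKM sums and lay between -0.0016 and 0.0325 with 1 mouse left out.

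Mice of the same number did not deviate together (correlations of -0.08 to 0.09, and 1 of 6 control mice correlated best with its own number), so the numbers only name mice. With the number as a replicate block 8 members, 7 member transcripts, 40 genes of the lists and 5982 genes were called. Glul was called under the block and Aqp8 and Crtc2 were not (limma, adjusted p = 0.0247, 0.0989 and 0.0773), and no other gene named here changed its call. No blocked fit of the transcript shares was made. Changes of 0.5 on the log2 scale were recovered only in part in simulated data, so a member that was not called is not shown to be equal between groups.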
